A study of Mus musculus with 34 samples.

Results

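The hippocampus and the neocortex of mice that had received nicotine were compared directly, with 6 hippocampus arrays set against 6 neocortex arrays. These are 12 of the 34 arrays of the series and were chosen by treatment and tissue alone. Male mice were given 3 intraperitoneal injections at intervals of 2 h on postnatal day 23 and were killed on postnatal day 30. The nicotine mice received 10 mg/kg per injection, nicotine being an agonist of nicotinic acetylcholine receptors, in a sterile saline vehicle. Set beside them were 5 hippocampus and 5 neocortex arrays from mice injected with kainate at 15 mg/kg, a glutamate receptor agonist that provokes seizures, and 6 and 6 arrays from control mice injected with saline. The mice left alive on postnatal day 30 were used, a strain is not given in the sources used here, and RNA was taken from the tissue as isolated, so each array averages over all cells of a region. Both regions were taken from 6 nicotine mice, but the labels do not tie arrays to mice. Each comparison below asks how the regions differed in mice of 1 treatment, and the nicotine regions alone do not show what nicotine did.

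The hippocampus holds a few large classes of excitatory neurons, the granule cells of the dentate gyrus and the pyramidal cells of the CA fields, and it keeps a zone of neuron production into adult life. The neocortex is built of layers of projection neurons with different targets, mixed with local inhibitory interneurons. Nicotinic receptors are cation channels gated by acetylcholine and lie on interneurons, on projection neurons and on axon terminals in both regions.

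The values are signals made by the authors with MAS5, the array maker's algorithm, and a signal has no absolute unit. Fold changes are given as log2 of hippocampus over neocortex after 16 was added to each signal, and this constant draws the folds of dim genes towards 0. Array medians ran from 394.2 to 434.6 in the nicotine hippocampus and from 380.9 to 416.9 in the nicotine neocortex. Correlations of log2 signals between arrays ran from 0.921 to 0.957 within the nicotine hippocampus, from 0.935 to 0.965 within the nicotine neocortex and from 0.908 to 0.947 between the regions. Replicate 3 of the hippocampus and replicate 6 of the neocortex stood farthest from the other arrays of their group: the SD of their log2 deviation from the mean of the other 5 was 0.531 and 0.506, against 0.396 to 0.451 and 0.353 to 0.390 for the rest.

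Of 8695 probe sets tested, 784 (9.02%) differed between the nicotine regions at a Benjamini-Hochberg adjusted p under 0.05 (limma). In the hippocampus 383 (4.4%) were higher and 401 (4.61%) were lower. Taking the brightest probe set of each gene, 302 genes were higher and 319 lower of 6423 tested. A change over 2-fold was seen in 71 higher and 82 lower probe sets, and the median size of a called log2 fold change was 0.59. The signals of all 6 hippocampus arrays lay on 1 side of all 6 neocortex arrays for 520 probe sets (5.98%), and 487 of these were called. Without neocortex replicate 6 the number called was 876. The arrays were divided into 3 clusters by their control probe sets, spots that report hybridization and RNA quality. The number 3 was set, not found from the data, and each cluster was treated as a possible batch. With the cluster as a block 744 probe sets were called. Within the cluster that held 3 arrays of each region, hippocampus replicates 2, 3 and 4 and neocortex replicates 1, 2 and 6, 243 were called, of which 228 were among the 784. This cluster held fewer arrays, and among them the arrays farthest from their groups, hippocampus replicate 3 and neocortex replicate 6. How far batch, array number or these arrays lowered its counts was not tested. The other clusters held 1 hippocampus and 2 neocortex arrays, or 2 and 1, too few for a value of their own. Tissue is bulk here, so fewer cells of a type and less RNA per cell cannot be told apart in any of these differences.

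Among named genes the highest log2 fold change was that of Dsp, which encodes desmoplakin, a protein that anchors junctions to the cytoskeleton and marks dentate granule cells. It had signals of 716.8 to 1476 (median 1003) in nicotine hippocampus, against 61.9 to 159.3 (median 92.8) in nicotine neocortex. It was 8.96-fold higher, with a log2 fold change of 3.16 ± 0.23 (SE) and adjusted p = 1.16e-07, and its neocortex signal lay below the level of the filter on dim probe sets. Pkp2, which encodes plakophilin 2, a partner of desmoplakin in desmosomes, ran from 1211 to 1734 (median 1443) in nicotine hippocampus, against 225.6 to 323 (median 261.6) in nicotine neocortex, and was 5.17-fold higher (adjusted p = 9.40e-09). For both genes every hippocampus array was several times brighter than every neocortex array. Lct, the lactase gene, measured 693.2 to 1011 (median 936.3) in nicotine hippocampus, against 116.1 to 224.9 (median 142.4) in nicotine neocortex, a log2 fold change of 2.44 ± 0.18 (SE). Agt encodes angiotensinogen, the precursor of angiotensin, which astrocytes make in the brain. It ran from 1178 to 1774 (median 1587) in nicotine hippocampus, against 103.2 to 493.1 (median 298) in nicotine neocortex, with a log2 fold change of 2.43 ± 0.26 (SE) and adjusted p = 6.79e-06. A probe set without a gene name here had a log2 fold change of 3.63, above that of Dsp, with signals of 1382 to 1947 (median 1747) in the nicotine hippocampus arrays, against 64 to 224.2 (median 120) in the nicotine neocortex arrays. Its median neocortex signal also lay below the level of the filter, so this fold and its place above Dsp depend on the added constant. It was singled out after its values were seen.

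Zbtb20, a transcription factor that specifies hippocampal pyramidal neurons, had signals of 2392 to 3467 (median 2614) in nicotine hippocampus, against 466.4 to 660.6 (median 549.8) in nicotine neocortex, and was 4.83-fold higher (adjusted p = 7.93e-09). Nnat, an imprinted gene for a small membrane protein, ran from 8494 to 14420 (median 9968) in nicotine hippocampus, against 1316 to 3836 (median 2483) in nicotine neocortex. Npy2r encodes the Y2 receptor for neuropeptide Y, which sits on axon terminals and limits transmitter release. Its signals ran from 2180 to 2748 (median 2323) in nicotine hippocampus, against 273.9 to 643.7 (median 605.6) in nicotine neocortex, and its ligand gene Npy went the other way, as given below. Cpne6, a calcium-dependent membrane-binding protein of neurons, had the smallest SE among the 16 highest folds. It ran from 15270 to 17090 (median 15570) in nicotine hippocampus, against 4113 to 5606 (median 4953) in nicotine neocortex, a log2 fold change of 1.69 ± 0.08 (SE) with adjusted p = 5.74e-10. The groups did not overlap for any of these 4 genes. Crym (a thyroid hormone binding protein, log2 fold change 1.91), Doc2b (a calcium sensor of vesicle fusion, 1.69), Rasd1 (a small GTPase induced by dexamethasone, 1.63), Lpl (lipoprotein lipase, 1.68), Klk8 (neuropsin, an extracellular protease, 1.77), Mycl (a transcription factor of the Myc family, 1.85), Nt5dc2 (1.86) and Prox1 (the homeobox factor of dentate granule cells, 1.75) complete the 16 genes with the highest folds. Prox1 was also dim in the neocortex.

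The lowest log2 fold change was that of Tnnc1, which encodes the slow skeletal and cardiac troponin C. It had signals of 28.8 to 260.5 (median 98.85) in nicotine hippocampus, against 633.5 to 1040 (median 810.7) in nicotine neocortex. Its log2 fold change was -2.77 ± 0.35 (SE), with adjusted p = 4.70e-05, and the hippocampus signal lay below the level of the filter. Rgs6 and Rgs4 encode proteins that shorten G-protein signals. Rgs4 ran from 528.7 to 1024 (median 750.1) in nicotine hippocampus, against 2425 to 2939 (median 2643) in nicotine neocortex, 3.54-fold lower with adjusted p = 1.12e-07, and Rgs6 had a log2 fold change of -2.25 ± 0.30 (SE). Mef2c, an activity-regulated transcription factor of cortical neurons, ran from 1371 to 2567 (median 1940) in nicotine hippocampus, against 6174 to 7499 (median 6833) in nicotine neocortex, a log2 fold change of -1.85 ± 0.14 (SE). All 4 of its probe sets were called lower, from -1.85 for this brightest one to -2.31. The arrays of the regions did not overlap for any of these 4 genes.

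Stx1a, which encodes syntaxin 1A of the vesicle fusion complex, ran from 2275 to 3664 (median 3120) in nicotine hippocampus, against 9711 to 11650 (median 10620) in nicotine neocortex, 3.57-fold lower with adjusted p = 1e-08. Arpp19, an inhibitor of the phosphatase PP2A when phosphorylated, ran from 1084 to 1386 (median 1220) in nicotine hippocampus, against 3950 to 4414 (median 4236) in nicotine neocortex, a log2 fold change of -1.76 ± 0.08 (SE) with adjusted p = 5.74e-10. Tbr1, a T-box factor of deep-layer neurons, ran from 1244 to 2788 (median 1946) in nicotine hippocampus, against 5265 to 9034 (median 6566) in nicotine neocortex. Adcyap1, the gene of the peptide PACAP, ran from 274.3 to 409.1 (median 331.9) in nicotine hippocampus, against 690.2 to 1179 (median 1104) in nicotine neocortex. Every neocortex array was brighter than every hippocampus array in these 4. The other genes among the 16 lowest folds were Igfbp6 (an IGF-binding protein, log2 fold change -2.05), Cux2 (a homeobox factor of upper layers, -1.92), Gabrd (the delta subunit of the GABA-A receptor, -1.91), Krt12 (a keratin, -1.72), Fhod3 (a formin that shapes actin, -1.65), Sema3a (a secreted guidance molecule, -1.63), Dtl (a factor of DNA replication control, -1.72) and Trbv1 (-2.06), a segment of the T cell receptor beta locus. Dtl was the 1 gene of the 32 whose arrays overlapped between the regions. The 32 were picked by fold among called genes, which favours separated arrays. Over all 8695 probe sets tested, the arrays did not overlap for 520 (5.98%).

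**Figure D1:**
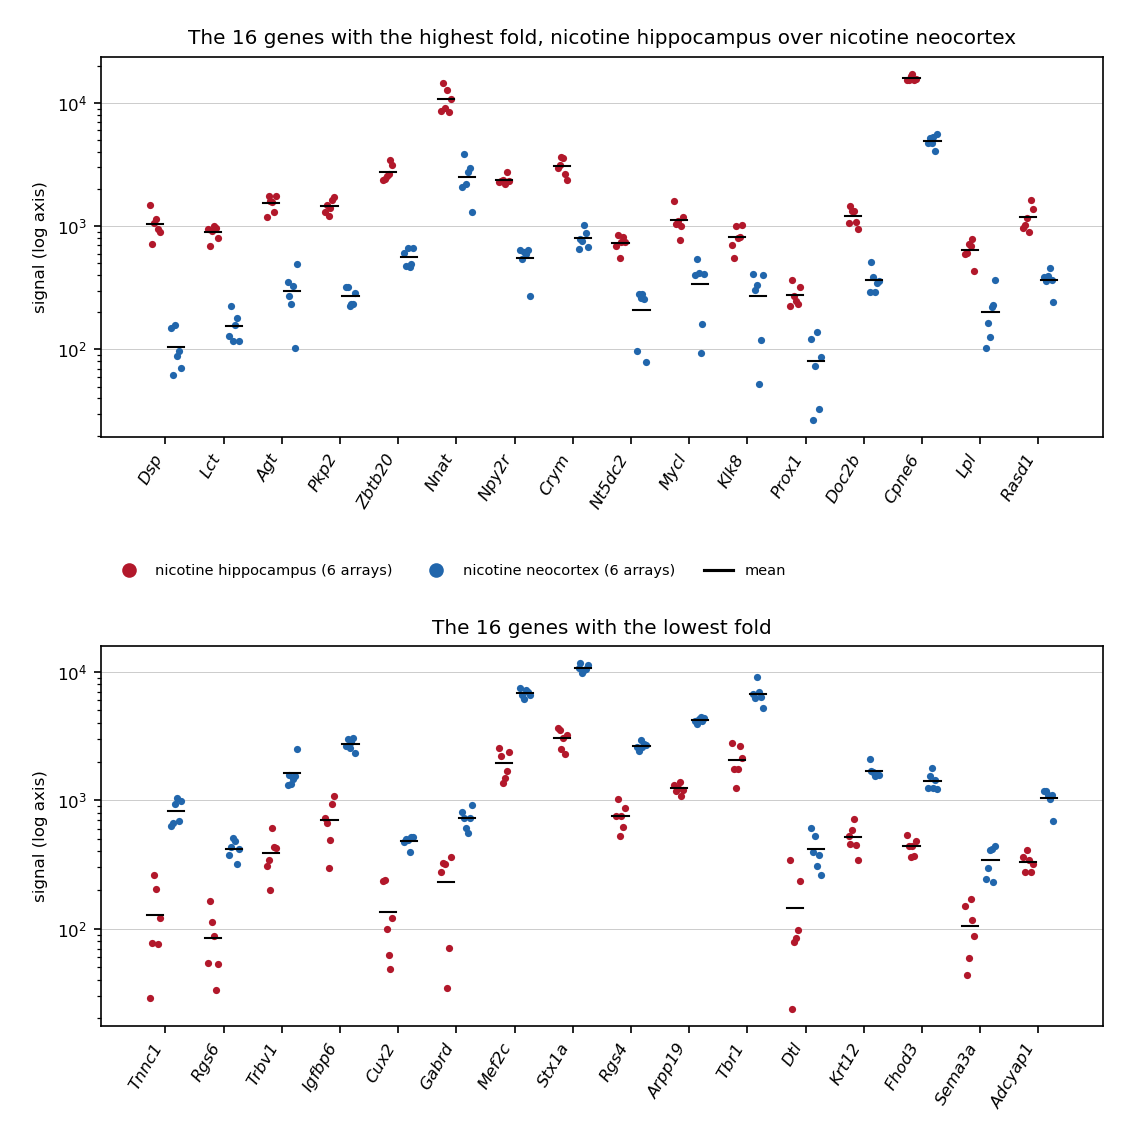
MAS5 signal on a log axis of the 16 genes with the highest (upper panel) and the 16 with the lowest (lower panel) log2 fold change among genes called between the regions of nicotine mice. Each point is 1 array, red for nicotine hippocampus and blue for nicotine neocortex with 6 arrays each, and black bars are means; Dsp runs from 716.8 to 1476 (median 1003) in nicotine hippocampus, against 61.9 to 159.3 (median 92.8) in nicotine neocortex, and Dtl is the 1 gene whose arrays overlap.

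Markers of CA pyramidal cells were mostly higher in the nicotine hippocampus. Members of this list, and of every list below, were picked with earlier results of these data known. Their counts therefore describe these genes and are no independent test. Of 11 tested genes of CA pyramidal cells, 9 were higher and 0 lower, with a median log2 fold change of 1.12. Over all 6423 genes tested, 302 were higher and 319 lower, with a median of 0.0072. Each list count below is to be read beside these values. Homer3, a scaffold of metabotropic glutamate receptors, had signals of 927.2 to 1403 (median 1171) in nicotine hippocampus, against 227.6 to 522.9 (median 404.6) in nicotine neocortex. Rgs14, a G-protein regulator enriched in area CA2, ran from 6028 to 6585 (median 6184) in nicotine hippocampus, against 2678 to 3832 (median 3388) in nicotine neocortex (adjusted p = 2.82e-06). Wfs1, an endoplasmic reticulum protein that marks CA1, ran from 3314 to 5099 (median 3829) in nicotine hippocampus, against 1738 to 2489 (median 2056) in nicotine neocortex. The regions did not overlap in these 3. Neurod6, a helix-loop-helix factor of pyramidal neurons, was 1.89-fold higher (adjusted p = 0.00245), with overlapping arrays. Of 12 tested genes of dentate granule cells, 6 were higher and 1 lower, with a median of 0.69. Besides Dsp, Lct and Prox1, the higher members included Il16, a secreted cytokine precursor with a neuronal form (1.16), and the lower member was Cdk5r1, which encodes the Cdk5 activator p35 (-0.58). Calb1, which encodes the calcium buffer calbindin of granule cells and of many neocortical neurons, ran from 1916 to 2752 (median 2494) in nicotine hippocampus, against 2550 to 3388 (median 3058) in nicotine neocortex, and was not called (adjusted p = 0.0616). Calb1 passed the threshold, as lower, with array weights, with all 34 arrays and without neocortex replicate 6. Without neocortex replicate 6 there were 2 lower members of the dentate list in place of 1. Within the cluster of 3 arrays a region, 2 were higher and 0 lower. With a filter at the 50th percentile of signal the dentate list kept 6 tested members, of which 2 were higher, and its median was -0.34. For 2 further members the brightest probe set was not called while a dimmer one was, at 2.00 for Tdo2 and -1.78 for Pdyn; this was seen after their values were examined.

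Part of the layer markers of the neocortex were lower in the nicotine hippocampus. Of 12 tested genes of upper layers, 5 were lower and 1, Wfs1, was higher, with a median log2 fold change of -0.66. Cux2 ran from 48.8 to 240.6 (median 110.1) in nicotine hippocampus, against 394.8 to 521.5 (median 493.4) in nicotine neocortex. Its median hippocampus signal lay below the level of the filter. Lmo4, a LIM-domain transcriptional regulator, ran from 3446 to 6948 (median 4555) in nicotine hippocampus, against 7085 to 9556 (median 9077) in nicotine neocortex. Plxnd1, a semaphorin receptor, ran from 493 to 798 (median 613.8) in nicotine hippocampus, against 1025 to 1493 (median 1434) in nicotine neocortex. No array of 1 region reached the other in these 3. Of 12 tested genes of deep layers, 6 were lower and 1, Crym, was higher, with a median of -0.47. The lower ones included Foxp1, a forkhead factor (-0.77, though its dimmer probe set gave -0.23 and was not called), Ccn2, a matrix protein of the deepest layer (-1.34), and Myl4, a myosin light chain (-1.13, with -2.67 by its dimmer probe set). Without hippocampus replicate 3 the deep-layer median was -0.77 and 2 members were higher.

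Interneuron genes went both ways. Of 22 tested, 6 were lower and 2 higher in the nicotine hippocampus, against 319 and 302 of all 6423 genes. The median log2 fold change of the 22 was -0.21. Within the cluster of 3 arrays a region, 1 was lower in place of 6, and Tac2 and Vip were not called. Npy, a peptide of many interneurons, had signals of 2258 to 2812 (median 2488) in nicotine hippocampus, against 5593 to 7982 (median 6675) in nicotine neocortex, a log2 fold change of -1.43 ± 0.09 (SE) with adjusted p = 2.02e-08. Tac2, the neurokinin B precursor, ran from 201 to 399.1 (median 301.4) in nicotine hippocampus, against 509.1 to 791.7 (median 574.5) in nicotine neocortex, and Vip, the peptide of interneurons that contact other interneurons, was 1.71-fold lower (adjusted p = 0.0222). The call for Vip was lost without hippocampus replicate 2 or neocortex replicate 3 or 4, at adjusted p values up to 0.0635. Calb2, which encodes calretinin, ran from 1411 to 2169 (median 1882) in nicotine hippocampus, against 897.3 to 1005 (median 948.8) in nicotine neocortex. Nos1, neuronal nitric oxide synthase, ran from 510.4 to 739.3 (median 638.7) in nicotine hippocampus, against 211.8 to 433.7 (median 272.4) in nicotine neocortex. These 2 were brighter in every hippocampus array than in any neocortex array. Gad1, the GABA-synthesizing enzyme of all interneurons, ran from 5533 to 7473 (median 6662) in nicotine hippocampus, against 6009 to 8620 (median 7524) in nicotine neocortex. Sst, somatostatin, ran from 8563 to 10880 (median 8820) in nicotine hippocampus, against 7768 to 10650 (median 8847) in nicotine neocortex. Neither was called (adjusted p = 0.303 for Gad1 and 0.902 for Sst), and the arrays overlapped.

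Of 25 tested astrocyte genes, 13 were higher in the nicotine hippocampus and 0 lower, against 302 and 319 of all 6423 genes. The median log2 fold change of the 25 was 0.34. Within the cluster of 3 arrays a region, 5 were higher. Gfap, the intermediate filament of astrocytes, had signals of 3368 to 4713 (median 4163) in nicotine hippocampus, against 1490 to 1828 (median 1724) in nicotine neocortex, and was 2.38-fold higher (adjusted p = 1.16e-07). Aqp4, the water channel of astrocyte endfeet, ran from 2856 to 4194 (median 3400) in nicotine hippocampus, against 1681 to 2512 (median 2178) in nicotine neocortex. Both regions' arrays stayed apart for both genes. Of 14 tested genes of oligodendrocytes and myelin, 5 were higher and 0 lower, with a median of 0.29. Within the cluster of 3 arrays a region, 1 was higher. The call for Cldn11, a member of this list, was lost in 10 of 12 fits that left out 1 array. Mobp, a myelin protein, ran from 14680 to 20990 (median 19570) in nicotine hippocampus, against 11220 to 14330 (median 12050) in nicotine neocortex. Of its 3 dimmer probe sets, those at 0.45 and 0.54 were called higher and the one at 0.14 was not called. Mag, the myelin-associated glycoprotein, was 1.57-fold higher (adjusted p = 0.00395), while its dimmer probe set at 0.05 was not called. Mbp, myelin basic protein, ran from 23930 to 34260 (median 28100) in nicotine hippocampus, against 21560 to 25410 (median 23060) in nicotine neocortex. Its log2 fold change of 0.27 ± 0.08 (SE) missed the threshold (adjusted p = 0.0552). It passed without hippocampus replicate 1 or 2, with a filter at the 50th percentile of signal and with a robust variance model. The dimmer probe set of Mbp went the other way, at -0.20, and was not called.

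Signals of defining markers were also summed for each cell type, and the brightest marker weighs most in a sum. This was Gja1 for astrocytes (not called, adjusted p = 0.105) and Mbp for oligodendrocytes (not called, as given above). For neurons it was Snap25, which was lower in the hippocampus (adjusted p = 0.024, limma). The astrocyte sum (3 of 4 markers measured) ran from 15950 to 19910 in the nicotine hippocampus and from 8688 to 13080 in the nicotine neocortex, and the oligodendrocyte sum (3 of 4) from 40030 to 56420 and from 34510 to 39230 in the same order. The neuron sum (Snap25, Syt1 and Gad1, 3 of 4) ran from 37760 to 53740 in the hippocampus and from 54970 to 64540 in the neocortex, without overlap. Syt1 and Gad1 were not called (adjusted p = 0.0513 and 0.303, limma). The part of these cell types in the differences of single genes was not tested. Microglia genes showed no call among 13 tested (0 higher, 0 lower, median 0.06), and the microglia sum (4 of 4) ran from 8249 to 10030 in the hippocampus and from 8981 to 9695 in the neocortex. The endothelial sum (4 of 4) ran from 2717 to 3956 in the hippocampus and from 2779 to 3416 in the neocortex. Of 20 tested vascular genes 1 was higher, Sparc, a matrix protein also made by glia (0.39, adjusted p = 0.0448), and that call was lost in 8 of 12 fits that left out 1 array. These were the fits without hippocampus replicates 2, 4, 5 and 6 and without neocortex replicates 3, 4, 5 and 6.

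Markers of tissue next to the regions were examined too, and those of the choroid plexus varied widely between arrays of 1 group. Ttr, which encodes transthyretin of the choroid plexus, had signals of 330.7 to 9588 (median 2251) in nicotine hippocampus, against 107.8 to 1791 (median 665.9) in nicotine neocortex, and was not called (adjusted p = 0.147). It passed the threshold without hippocampus replicate 4, at an adjusted p of 0.0476. The choroid plexus sum (3 of 4 markers) ran from 740.3 to 10820 in the hippocampus and from 354.9 to 2320 in the neocortex. Kl, which encodes klotho of the choroid plexus and of some neurons, was not tested because its mean lay below the filter; its signals ran from 280.5 to 380.2 in the hippocampus and from 12.2 to 112.4 in the neocortex. Of 13 tested genes of choroid plexus and meninges, 1 was higher, Dcn (decorin, a matrix proteoglycan, 1.42), and 1 was lower, Igfbp6, which ran from 296.4 to 1084 (median 693.6) in nicotine hippocampus, against 2350 to 3037 (median 2744) in nicotine neocortex. The number higher was 2 without hippocampus replicate 4, and the number lower was 2 without hippocampus replicate 6.

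Of 7 tested striatal genes 4 were lower, with a median log2 fold change of -0.52. Penk, the enkephalin precursor, ran from 1316 to 2529 (median 1698) in nicotine hippocampus, against 2867 to 7115 (median 5224) in nicotine neocortex (adjusted p = 3.82e-05), although a dimmer probe set of Penk gave 0.06 and was not called. Tac1, the substance P precursor (-0.84), Pde1b, a calmodulin-dependent phosphodiesterase (-0.52), and Foxp1 are expressed in the neocortex too, and of the defining striatal markers only Drd2 was measured here, not called, at 255.1 to 536.4 in the hippocampus and 333.3 to 572.1 in the neocortex. Of 10 tested thalamic genes, Prkcd, a protein kinase C activated by diacylglycerol (0.75), and Calb2 were higher, and Rora, an orphan nuclear receptor (-0.76), and Ramp3, a receptor-modifying protein (-0.60), were lower. The thalamic sum (3 of 4 markers) ran from 2873 to 4161 in the hippocampus and from 2188 to 2702 in the neocortex. Prkcd weighed most in this sum, and its other markers, Tcf7l2 (0.11) and Zic1 (0.27), were not called. What neighbouring tissue contributed was not tested.

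**Figure D2:**
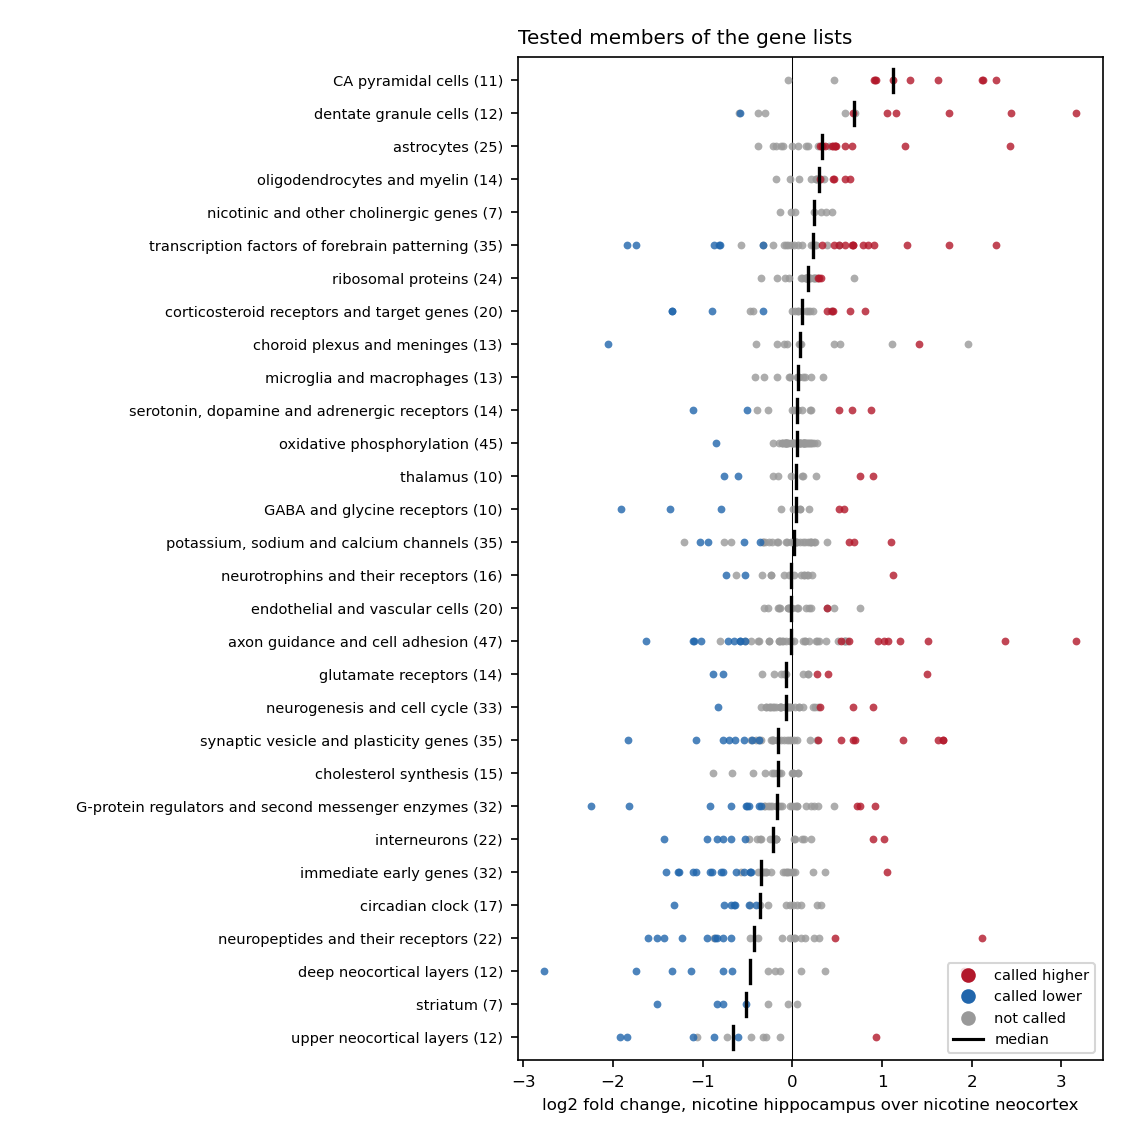
Log2 fold change of nicotine hippocampus over nicotine neocortex for each tested member of 30 gene lists, with the number tested in brackets. Each point is 1 gene by its brightest probe set, red where called higher, blue where called lower and grey where not called, and black bars are medians; they run from 1.12 for CA pyramidal cells to -0.66 for upper neocortical layers.

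Immediate early genes are those that neurons switch on within minutes of strong activity. Of 32 tested, 13 were lower in the nicotine hippocampus, 1 was higher and 18 were not called, with a median log2 fold change of -0.35. Over all 6423 genes, 319 were lower and 302 higher. The mice had been injected 7 days earlier. Egr1, a zinc-finger factor and a common reporter of activity, had signals of 2553 to 4596 (median 3298) in nicotine hippocampus, against 6288 to 10030 (median 8313) in nicotine neocortex. Its log2 fold change was -1.27 ± 0.14 (SE) with adjusted p = 7.12e-06, and every neocortex array was brighter than every hippocampus array. Egr2, of the same family, ran from 177.6 to 382.6 (median 262.6) in nicotine hippocampus, against 414.7 to 976.4 (median 769.8) in nicotine neocortex (adjusted p = 0.000761). Nr4a1, an orphan nuclear receptor, ran from 792.9 to 1569 (median 1096) in nicotine hippocampus, against 1948 to 3233 (median 2441) in nicotine neocortex (adjusted p = 0.00057). Fos, which forms the AP-1 factor with Jun proteins, ran from 363.1 to 1162 (median 582.8) in nicotine hippocampus, against 677.3 to 2162 (median 1578) in nicotine neocortex; its groups overlapped and it was 2.41-fold lower (adjusted p = 0.0131).

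The lower members also included genes of synaptic and signalling proteins. Homer1, a scaffold with an activity-induced short form, ran from 160.6 to 425.4 (median 252.5) in nicotine hippocampus, against 450.9 to 763.7 (median 558.9) in nicotine neocortex. Nptx2, a secreted pentraxin that clusters AMPA receptors, ran from 852.5 to 1345 (median 1017) in nicotine hippocampus, against 1605 to 1964 (median 1747) in nicotine neocortex. Rgs2, a G-protein regulator, ran from 309.2 to 562.3 (median 467.1) in nicotine hippocampus, against 693.5 to 1118 (median 808) in nicotine neocortex. The phosphatase gene Dusp1, which turns off MAP kinases, was 1.87-fold lower (adjusted p = 0.00419), with 1 neocortex array, replicate 6 at 1278, inside the range of the hippocampus. The 1 member that was higher, Jun, ran from 1008 to 1798 (median 1495) in nicotine hippocampus, against 443.3 to 916.1 (median 710.9) in nicotine neocortex (adjusted p = 0.000713). Jun also stands in the dentate granule cell list. Over the alternatives and the left-out arrays the number lower ran from 12 to 14, except within the cluster of 3 arrays a region, where 4 were lower and 0 higher. The number higher was 2 with array weights and without hippocampus replicate 3.

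**Figure D3:**
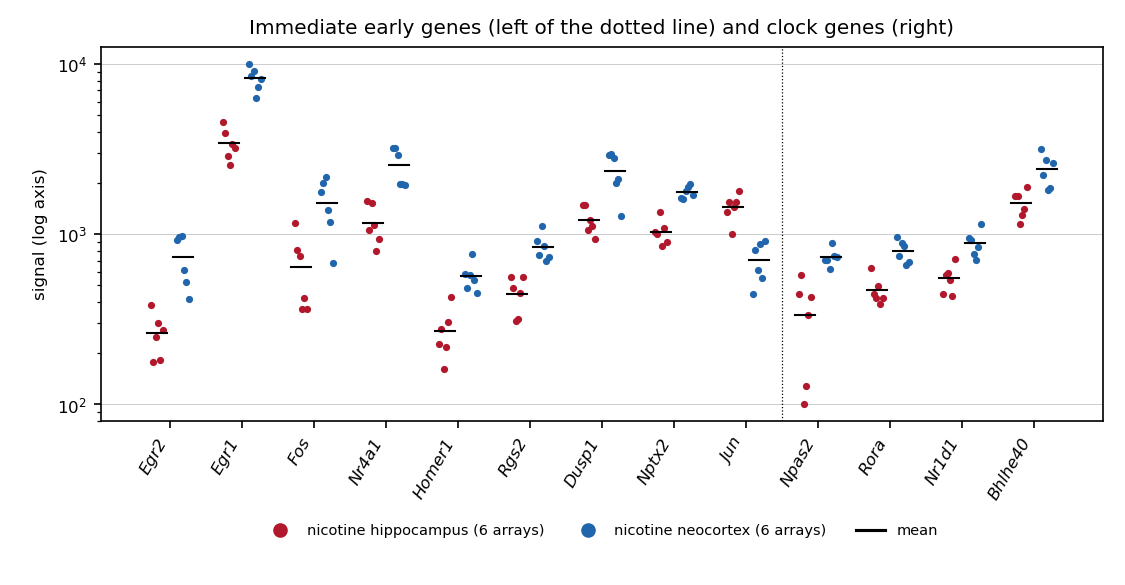
MAS5 signal on a log axis of immediate early genes (left of the dotted line) and clock genes (right) in nicotine mice. Each point is 1 array, red for nicotine hippocampus and blue for nicotine neocortex with 6 arrays each, and black bars are means; Jun is the gene with brighter hippocampus arrays (1008 to 1798 (median 1495) in nicotine hippocampus, against 443.3 to 916.1 (median 710.9) in nicotine neocortex).

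Many early genes carry cAMP response elements near their start, and the promoter letters are printed for 3 of the lower genes and for Jun, the higher one. Each run holds 250 bases before and 50 after the gene's start, from RefSeq GRCm38.p6, written 5′ to 3′ on the gene's strand. Capitals mark the letters TGACG, the core of the element, or CGTCA, the same core on the other strand; where the cores overlap as TGACGTCA, the full element, the capitals run together.
Fos, chr12:85473640-85473939, plus strand: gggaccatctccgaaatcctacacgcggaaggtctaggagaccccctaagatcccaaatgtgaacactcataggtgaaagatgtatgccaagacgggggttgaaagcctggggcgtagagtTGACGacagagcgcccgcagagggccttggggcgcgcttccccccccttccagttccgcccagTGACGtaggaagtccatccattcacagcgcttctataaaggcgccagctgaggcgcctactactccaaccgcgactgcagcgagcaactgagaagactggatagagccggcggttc
Nr4a1, chr15:101266596-101266895, plus strand: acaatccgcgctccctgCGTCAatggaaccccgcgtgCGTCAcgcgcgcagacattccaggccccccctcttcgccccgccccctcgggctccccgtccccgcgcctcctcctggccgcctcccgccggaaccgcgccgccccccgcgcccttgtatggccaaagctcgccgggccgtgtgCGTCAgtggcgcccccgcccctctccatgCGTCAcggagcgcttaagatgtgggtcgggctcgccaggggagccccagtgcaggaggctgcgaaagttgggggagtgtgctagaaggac
Dusp1, chr17:26508423-26508722, minus strand: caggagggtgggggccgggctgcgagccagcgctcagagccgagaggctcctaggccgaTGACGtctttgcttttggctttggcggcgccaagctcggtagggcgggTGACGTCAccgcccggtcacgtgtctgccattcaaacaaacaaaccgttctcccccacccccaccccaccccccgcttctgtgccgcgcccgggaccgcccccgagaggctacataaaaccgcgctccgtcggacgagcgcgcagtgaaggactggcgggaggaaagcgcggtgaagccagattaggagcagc
Jun, chr4:95052173-95052472, minus strand: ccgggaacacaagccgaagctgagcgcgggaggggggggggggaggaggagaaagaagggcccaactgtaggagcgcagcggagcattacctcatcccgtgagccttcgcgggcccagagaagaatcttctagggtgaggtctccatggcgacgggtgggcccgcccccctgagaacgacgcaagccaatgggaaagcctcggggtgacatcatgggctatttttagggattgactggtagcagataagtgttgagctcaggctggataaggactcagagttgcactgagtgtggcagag
The core was found 2 times for Fos, 4 times for Nr4a1, 3 times for Dusp1 (2 of them overlapping in 1 full element) and 0 times for Jun. Promoters were at hand for 27 of the 32 tested early genes and for 9 of the 13 lower ones. Egr1 and Nptx2, both lower, were among those without one. The counts here cover these 27 genes alone. The core was in 6 of the 9 among the lower genes (66.7%), not in those of Dusp6, Egr2 and Ier3, and in 8 of the 18 others (44.4%). It was in 21.0% of 27025 promoters of the same length, taking 1 promoter per gene. The full element was in 2 of the 27 early genes (7.41%), the lower Dusp1 and Btg2, which was not called, and in 1.88% of all promoters. The CArG box, the binding sequence of serum response factor, was in 0 of the 27 and in 1.57% of all promoters. A match describes these letters only.

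Clock genes were partly lower in the nicotine hippocampus. Of 17 tested, 7 were lower and 0 higher, against 319 and 302 of all 6423 genes, with a median log2 fold change of -0.36. Npas2, a partner of Bmal1 in forebrain clocks, had signals of 100.4 to 575.4 (median 380.1) in nicotine hippocampus, against 627 to 893.3 (median 722) in nicotine neocortex, with 2 hippocampus arrays far below the other 4. Rora ran from 387.3 to 633.1 (median 434.5) in nicotine hippocampus, against 656.4 to 958.4 (median 798.5) in nicotine neocortex (adjusted p = 0.00219). Nr1d1, which encodes the repressor Rev-erb alpha, ran from 433.7 to 714.4 (median 557.4) in nicotine hippocampus, against 707.5 to 1145 (median 878.1) in nicotine neocortex (adjusted p = 0.00667). Bhlhe40, a repressor of clock output, was 1.57-fold lower (adjusted p = 0.00884). Every neocortex array was brighter than every hippocampus array in Npas2 and Rora, and the regions overlapped in the other 2. Over the alternatives and left-out arrays 5 to 8 members were lower, except within the cluster of 3 arrays a region, where 2 were lower, and 1 was higher without neocortex replicate 6. The time of day at death is not given in the sources used here for single mice.

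Neuropeptides and their receptors were lower more often than higher in the nicotine hippocampus. Of 22 tested, 9 were lower and 2 higher, against 319 and 302 of all 6423 genes. The median log2 fold change of the 22 was -0.43, and 11 further members were below the filter. With no filter the median over 33 members was -0.02. Crhr1, the receptor of corticotropin-releasing hormone, ran from 269.8 to 557.5 (median 438.6) in nicotine hippocampus, against 806.3 to 1186 (median 1038) in nicotine neocortex (adjusted p = 9.28e-05). The peptides Npy, Penk, Adcyap1, Tac1, Tac2 and Vip, given above, and Cort were lower too, as was the cholecystokinin receptor gene Cckbr. Ntsr2, a neurotensin receptor of astrocytes, ran from 5538 to 7101 (median 6295) in nicotine hippocampus, against 3785 to 4914 (median 4644) in nicotine neocortex, and it and Npy2r were the 2 higher members.

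Genes of glutamate, GABA and glycine receptors went both ways. The lower glutamate members were a receptor partner and a metabotropic receptor, not channel subunits. Gria1, an AMPA receptor subunit, had signals of 8080 to 9773 (median 9057) in nicotine hippocampus, against 2795 to 3542 (median 3245) in nicotine neocortex, 2.84-fold higher with adjusted p = 2.61e-09. Gria2, the subunit that limits calcium entry, was 1.21-fold higher (adjusted p = 0.0199), and its probe sets ranged from 0.02 to 0.40. Cacng2, the AMPA receptor partner stargazin, ran from 1108 to 2084 (median 1312) in nicotine hippocampus, against 2108 to 2696 (median 2419) in nicotine neocortex. Grm8, a presynaptic metabotropic receptor, ran from 274.7 to 419.1 (median 339.2) in nicotine hippocampus, against 507.8 to 797.1 (median 665.2) in nicotine neocortex. Of 14 tested glutamate receptor genes, 3 were higher and 2 lower, with a median log2 fold change of -0.07, and 1 was higher without hippocampus replicate 4 or without neocortex replicate 3. Of 10 tested GABA and glycine receptor genes, 2 were higher and 3 lower, with a median of 0.04. Gabrd ran from 34.5 to 362.5 (median 297.1) in nicotine hippocampus, against 558.9 to 917.9 (median 729.8) in nicotine neocortex, with 2 hippocampus arrays far below the other 4. Gabra3, the alpha3 subunit, ran from 65.4 to 318.6 (median 232.8) in nicotine hippocampus, against 355.8 to 764.3 (median 587.3) in nicotine neocortex, and Glrb, the glycine receptor beta subunit, was 1.73-fold lower (adjusted p = 0.00454). Gabrb1, the beta1 subunit, was brighter in every hippocampus array (6453 to 8793 (median 7555)) than in any neocortex array (4870 to 5665 (median 4994)). The other higher member, Gabra2, lost its call without hippocampus replicates 1, 4 or 5 or neocortex replicates 1, 2, 3 or 4, at adjusted p values up to 0.094.

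Nicotinic receptor genes did not differ detectably. Of 7 tested genes of acetylcholine signalling, 0 were higher and 0 lower, with a median log2 fold change of 0.24. Chrna7, the subunit of the fast homomeric receptor, had signals of 626.4 to 1088 (median 841) in nicotine hippocampus, against 431.9 to 697.1 (median 620.2) in nicotine neocortex, a log2 fold change of 0.45 ± 0.15 (SE) with a 95% interval from 0.13 to 0.77 and adjusted p = 0.0817. It passed the threshold without hippocampus replicate 1. Chrna6, a subunit of receptors on dopamine axons, ran from 164.7 to 395.2 (median 272.1) in nicotine hippocampus, against 44.6 to 376.7 (median 293.4) in nicotine neocortex, with the groups fully overlapping. Chrnb2, the main beta subunit of brain receptors, was below the filter at 79.8 to 256.4 (median 134.4) in nicotine hippocampus, against 80 to 154 (median 112.5) in nicotine neocortex. The muscle-type subunits Chrna1 and Chrnb1 were dim as well, and Chrnd, Chrne and Chrng were tested and not called. Chrna4 was not measured here.

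Of 14 tested receptor genes for serotonin, dopamine, noradrenaline and histamine, 3 were higher and 2 lower, with a median log2 fold change of 0.06. Htr5b, a serotonin receptor of the hippocampus, was 1.83-fold higher (adjusted p = 0.00253), and Adra2c, an inhibitory adrenergic receptor, was 1.43-fold higher (adjusted p = 0.0125). Htr1a, an inhibitory serotonin receptor of pyramidal and granule cells, was 1.58-fold higher (adjusted p = 0.0234), a call lost without hippocampus replicate 2 or 4 or neocortex replicate 1 or 4, at adjusted p values up to 0.0606. The arrays of the regions overlapped for all 3. Without neocortex replicate 1 or 2 no member was lower, and 1 was lower without neocortex replicates 3 to 6 or hippocampus replicates 2 to 6.

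Of 35 tested ion channel genes, 3 were higher and 4 lower in the nicotine hippocampus, against 302 and 319 of all 6423 genes, with a median log2 fold change of 0.02. Ryr3, the ryanodine receptor for calcium release from stores, had signals of 1489 to 1570 (median 1537) in nicotine hippocampus, against 617.4 to 857 (median 708) in nicotine neocortex (adjusted p = 8.32e-07), and Kcnab2, a potassium channel beta subunit, ran from 7756 to 9157 (median 8062) in nicotine hippocampus, against 4345 to 6174 (median 5240) in nicotine neocortex. Kcnj9, the GIRK3 subunit opened by G-proteins, ran from 773.3 to 1224 (median 1080) in nicotine hippocampus, against 1785 to 2553 (median 1847) in nicotine neocortex, while its dimmer probe set gave 0.18 and was not called. Scn1a, the sodium channel of fast-spiking interneurons, was 2.04-fold lower (adjusted p = 0.000394), with 1 neocortex array, replicate 6 at 2013, far below the other 5. The number lower was 2 without neocortex replicate 1, 2 or 3.

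Regulators of G-proteins and the enzymes of cyclic nucleotide and kinase signalling were lower in the nicotine hippocampus in 9 of 32 tested and higher in 3, with a median log2 fold change of -0.17. Prkacb, a catalytic subunit of protein kinase A, had signals of 6898 to 10730 (median 8456) in nicotine hippocampus, against 11580 to 15470 (median 13180) in nicotine neocortex (adjusted p = 0.000222). Camk2b, the beta subunit of calcium/calmodulin-dependent kinase II, ran from 19440 to 20850 (median 20380) in nicotine hippocampus, against 10900 to 13760 (median 12530) in nicotine neocortex (adjusted p = 1.24e-06). The regions stayed apart for both, in opposite directions. Among 35 tested genes of synaptic vesicles and plasticity, 8 were higher and 8 lower, with a median of -0.16. Hpca, the calcium sensor hippocalcin, ran from 18880 to 35050 (median 24860) in nicotine hippocampus, against 9505 to 12810 (median 11470) in nicotine neocortex. Syt4, an atypical synaptotagmin, was 1.64-fold lower (adjusted p = 0.024), a call lost without hippocampus replicate 6 or neocortex replicate 1, 2 or 3, at adjusted p values up to 0.0661.

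Transcription factors that pattern the forebrain included 13 higher and 6 lower of 35 tested in the nicotine hippocampus, with a median log2 fold change of 0.23. Lmo1, a LIM-domain protein, had signals of 1502 to 2557 (median 1825) in nicotine hippocampus, against 666.7 to 861.7 (median 773.7) in nicotine neocortex, whereas its relative Lmo4 was lower, as given above. Satb1, a chromatin organizer of interneurons and cortical neurons, ran from 1229 to 2576 (median 1709) in nicotine hippocampus, against 2753 to 3891 (median 2940) in nicotine neocortex. Klf9, a Krüppel-like factor that responds to corticosteroids and thyroid hormone, was 1.26-fold lower (adjusted p = 0.0102). Axon guidance and adhesion genes were split, with 9 higher and 9 lower of 47 tested and a median of -0.01. Nrp1, a semaphorin and VEGF co-receptor, ran from 3264 to 4017 (median 3808) in nicotine hippocampus, against 1112 to 1485 (median 1308) in nicotine neocortex. Epha6, an ephrin receptor, ran from 494.7 to 1124 (median 874.6) in nicotine hippocampus, against 311.2 to 390.5 (median 346.2) in nicotine neocortex. Sema3a, a ligand of the Nrp1 receptor complex, ran from 43.4 to 168.8 (median 102.6) in nicotine hippocampus, against 230.8 to 443.2 (median 352.1) in nicotine neocortex, lower where its receptor gene was higher. Ephb6, an ephrin receptor without kinase activity, was 2.02-fold lower (adjusted p = 3.43e-05), but its dimmer probe set gave -0.06 and was not called.

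Corticosteroid receptors and their targets moved both ways, with 5 higher and 4 lower of 20 tested in the nicotine hippocampus and a median log2 fold change of 0.11. Fkbp5, a co-chaperone that dampens the glucocorticoid receptor, had signals of 2861 to 3639 (median 3217) in nicotine hippocampus, against 1626 to 2384 (median 2157) in nicotine neocortex (adjusted p = 0.000366). Cdkn1a, the cell cycle inhibitor p21, ran from 280.1 to 708 (median 565.2) in nicotine hippocampus, against 989.4 to 1644 (median 1399) in nicotine neocortex, and Ddit4, an inhibitor of mTOR signalling, was 1.76-fold higher (adjusted p = 0.0042). Among 33 tested genes of neurogenesis and the cell cycle, 3 were higher and 1 lower, against 302 and 319 of all 6423 genes. The median of the 33 was -0.07. Stmn1, a microtubule regulator of growing neurites, ran from 10600 to 16210 (median 13960) in nicotine hippocampus, against 22560 to 25000 (median 24000) in nicotine neocortex and was the lower member. Neurod1, a factor of newborn granule neurons, had a log2 fold change of 0.68 ± 0.17 (SE), with adjusted p = 0.0179. The number higher was 1 without hippocampus replicate 2 or without neocortex replicate 5.

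Of 16 tested neurotrophic genes, 1 was higher and 2 were lower in the nicotine hippocampus, against 302 and 319 of all 6423 genes. The median log2 fold change of the 16 was -0.01. Fgfr1, a fibroblast growth factor receptor, ran from 2177 to 2780 (median 2572) in nicotine hippocampus, against 957.2 to 1366 (median 1110) in nicotine neocortex. Gfra2, the neurturin receptor, ran from 780.7 to 1410 (median 1086) in nicotine hippocampus, against 1566 to 2034 (median 1826) in nicotine neocortex. Their arrays did not overlap. The other lower member, Vegfa, was 1.45-fold lower (adjusted p = 0.0486), a call lost in 9 of 12 fits that left out 1 array; it was kept without hippocampus replicate 1 or 2 or neocortex replicate 6. Of the housekeeping lists, oxidative phosphorylation had 0 higher and 1 lower of 45 tested (median 0.05), the lower one being Cox6a2, the muscle-type subunit of cytochrome oxidase, at 561.7 to 871.2 (median 645.4) in nicotine hippocampus, against 1063 to 1561 (median 1132) in nicotine neocortex. Cholesterol synthesis had 0 calls of 15 (median -0.16), with 1 lower without neocortex replicate 6. Ribosomal proteins had 3 higher and 0 lower of 24, 20 with a positive fold (median 0.17), with Rplp0, a protein of the ribosomal stalk, 1.23-fold higher (adjusted p = 0.00793). The number of higher ribosomal genes was 6 without neocortex replicate 6 and 1 without neocortex replicate 1, 3, 4 or 5 or hippocampus replicate 5.

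The saline mice gave a separate set of arrays in which to look at the same genes. There 717 of 8695 probe sets (8.25%) differed between hippocampus and neocortex, 361 higher (4.15%) and 356 lower (4.09%). The calls shared by both treatments numbered 484, which is 61.7% of the nicotine calls and 67.5% of the saline calls, and all 484 had the same direction. Of 783 probe sets called in nicotine and tested in saline, 771 had the same sign of fold in saline. Over 8495 probe sets tested in both, Pearson's r of the log2 fold changes was 0.65, given as a description since the points share the array design and probe sets are not independent. Among probe sets called in nicotine the median ratio of the saline fold to the nicotine fold was 0.91, and these had been selected for their nicotine fold.

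Single genes show how near the folds were. The log2 fold change with nicotine and with saline was 3.16 and 2.81 for Dsp, 1.69 and 1.58 for Cpne6, 1.25 and 1.18 for Gfap. It was -1.43 and -1.39 for Npy, -1.27 and -1.15 for Egr1, -1.83 and -1.67 for Stx1a. By list, 9 CA pyramidal genes were higher and 0 lower with nicotine and with saline, and immediate early genes counted 13 lower and 1 higher with nicotine and 12 lower and 1 higher with saline. Clock genes counted 7 lower with nicotine and 3 with saline, at medians of -0.36 and -0.34. Channel genes counted 4 lower with nicotine and 8 with saline. Whether these counts differ was not tested. Genes named above that were called with nicotine and not with saline include Nos1 (1.02 and 0.47), Neurod1 (0.68 and 0.12) and Glrb (-0.79 and -0.21), and a call in 1 comparison does not show a difference between them.

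**Figure D4:**
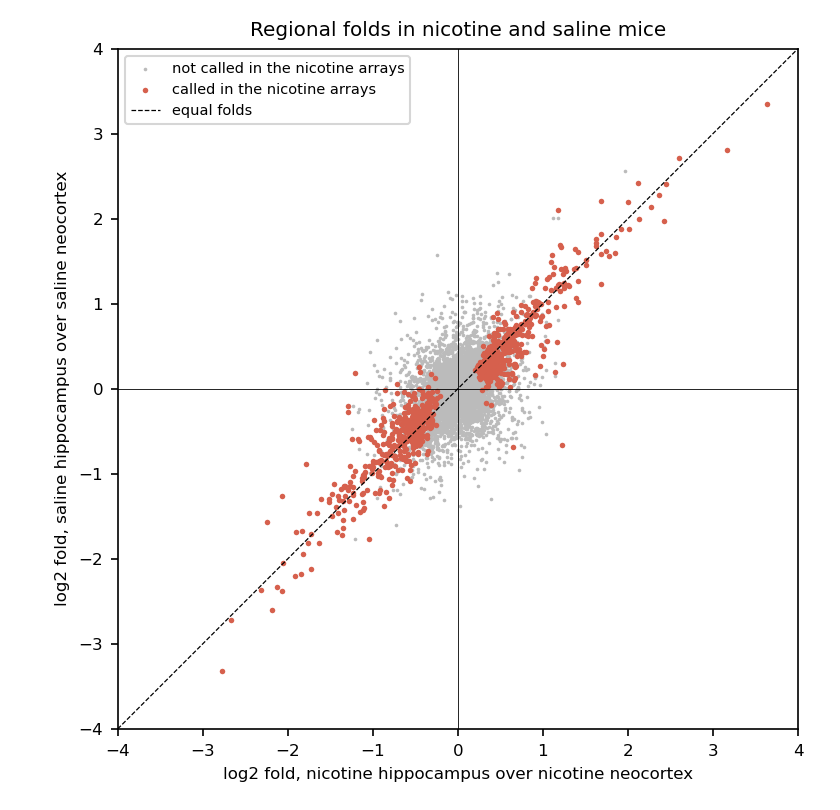
Log2 fold change of hippocampus over neocortex in nicotine mice (horizontal) and in saline mice (vertical) for 8495 probe sets tested in both. Orange points are called in the nicotine arrays, grey points are not, and the dashed line marks equal folds; 771 of 783 orange points have the same sign on both axes.

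The difference between the regional folds was tested itself, as the interaction of region and treatment. With nicotine against saline, 0 of 8695 probe sets (0.0%) were called by limma, the lowest adjusted p was 0.643, and 349 (4.01%) had an unadjusted p under 0.05. The median SE of this difference was 0.225. For 699 of the 783 probe sets called in nicotine, the 95% interval of the difference lay within 1 log2 unit of 0. That margin is wider than the median size of a called log2 fold change, 0.59, so smaller changes are not bounded by it. For Gfap the difference was 0.07 with an interval from -0.22 to 0.36, for Npy -0.03 with -0.27 to 0.21, for Cpne6 0.10 with -0.12 to 0.32 and for Egr1 -0.12 with -0.47 to 0.22. Chrna7 was less well resolved, at 0.14 with an interval from -0.96 to 1.23.

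The 5 genes with the smallest unadjusted p are given as values. A dim probe set of Epha4, an ephrin receptor, averaged 223.7 ± 46.9 (SD, n = 6) in nicotine hippocampus, 174.0 ± 108.0 in nicotine neocortex, 50.72 ± 19.0 in saline hippocampus and 220.3 ± 81.8 in saline neocortex. Its difference of log2 fold changes was 2.35 ± 0.50 (SE) with an adjusted p of 0.643 (limma), and the brightest probe set of Epha4 had similar folds with nicotine and saline (0.27 and 0.24). The others were Eif3e, a translation initiation subunit (-2.55, dim probe set), Serpinh1, a collagen chaperone (-0.72), Sphk2, a sphingosine kinase (-0.72), and Itgax, an integrin of myeloid cells (1.34), each with an adjusted p of 0.984 (limma).

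With nicotine against kainate, 73 of 8695 probe sets (0.84%) differed in their regional fold, 6 positive and 67 negative. The positive ones, where the hippocampus stood higher relative to the neocortex with nicotine, were Wfs1 (0.87), Calb1 (0.69), Cpne6 (0.62), Cnih2, an AMPA receptor partner (0.56), Prkce, a protein kinase C (0.50), and Cdc42se2, an effector of Cdc42 (0.39). For Calb1 the fold was -0.30 with nicotine, -0.99 with kainate and -0.19 with saline. The negative ones included Mpeg1, a pore-forming protein of macrophages, with a fold of -0.32 with nicotine and 2.90 with kainate, C1qa, a complement subunit of microglia (0.06 with nicotine and 1.71 with kainate), and Gfap (1.25 with nicotine and 2.34 with kainate). Penk had a fold of -1.51 with nicotine and -0.18 with kainate. For these genes the saline folds were 0.05 for Mpeg1, 0.05 for C1qa, 1.18 for Gfap and -1.33 for Penk. With each array centred on its median 46 probe sets were called.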

How the data were processed

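The deposited values are MAS5 signal intensities on a linear scale, 1 per probe set and array, made by the authors; the submitters' processing notes name MAS5 without a version. Per the labels' protocols, RNA was extracted with TRIzol and labelled as biotin cRNA. Each array had been scaled to a common mean by the authors, so a rise of bright probe sets lowers the others. Detection calls were not used here, and the number of arrays limits the precision.

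Of 12488 probe sets, 66 controls were left out. A constant of 16 was added before log2, and probe sets under the 30th percentile of mean level in the 12 nicotine arrays (signal 130.6) were dropped, which left 8695. Every other comparison took the same percentile over its own arrays. It too left 8695 probe sets, but not all the same ones. Per comparison, limma 3.58.1 under R 4.3.3 (lmFit, then eBayes with its variance trend over signal) was fitted to the arrays of the groups compared, and p-values were adjusted by Benjamini-Hochberg over all tested probe sets, with calls under 0.05. The script was tested on simulated data. Genes were named from the platform annotation, updated to RefSeq GRCm38.p6 through Entrez identifiers: 10833 probe sets had 1 gene, 396 several and 1193 none, and 10817 matched. The brightest probe set in the nicotine arrays stands for a gene.

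Genes were named by rule: the 16 highest and 16 lowest folds among called genes, up to 4 called members per list and direction, the nicotinic subunits, the 5 smallest interaction p-values and 7 fixed genes (Gfap, Calb1, Sst, Npy, Gad1, Ttr, Mbp), with exceptions said where they occur. The 30 lists held 947 genes, of which 643 were measured and 558 tested. Members, lists and tests were chosen with earlier results of these data known. Both regions came from the same mice, with nothing in the labels to match arrays to mice, so arrays were treated as independent; p-values measure the spread between arrays of a group. Arrays with the same number did not deviate together (correlations of deviations from -0.02 to 0.096), so numbers were not used as pairs. Alternatives were other constants, filters, scalings and variance models, all 34 arrays, blocks, and leaving out each array. Plots were made in matplotlib 3.10.9 under Python 3.11.15.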

Additional observations from a re-analysis of the deposited data

Results flagged for a closer look

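In 286 groups of 6 arrays (the nicotine hippocampus and the nicotine neocortex arrays of each named gene), 20 had 1 array whose distance from the nearest other array, over the range of the group, was above Dixon's 95% critical value. Chance marks about 1 in 20 such groups. Neocortex replicate 6 was that array in 8 of the 20, with the lowest signal for Scn1a (2013, the other 5 running from 3469 to 3733), Npy2r (273.9), Adcyap1 (690.2), Cldn11 (1966), Ntsr2 (3785), Pde1b (3686) and Kcnk2 (2797), and the highest for Trbv1 (2492). In the other neocortex arrays, Krt12 (2085) and Gabrb1 (5665) were highest and Plxnd1 (1025) lowest in replicate 1, Cux2 (394.8) and Klf9 (5290) were lowest in replicate 4, and Chrna6 (44.6) was lowest in replicate 5. In the hippocampus, Kcnab2 (9157) and the dim Chrnb1 (123.8) were highest in replicate 2, Calb1 (1916) was lowest in replicate 3, Cdk5r1 (908.7) was lowest in replicate 5, and Sst (10880) and Vip (426.7) were highest in replicate 6.

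The regional fold differed between nicotine and kainate mice by the interaction term for 73 probe sets, 6 with a positive and 67 with a negative difference. No probe set was called for the same test of nicotine against saline by limma, where 349 had an unadjusted p under 0.05.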

How the results depend on the processing

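The number of probe sets called between the nicotine regions was 784. It ran from 618 to 876 when single arrays were left out, and from 659 to 941 under the other alternatives, with the exception of the cluster of 6 arrays alone, added after seeing the data, where it was 243 with 3 arrays a region. The higher and lower calls were 319 and 363 with each array centred on its median and 381 and 407 after quantile normalization. For nicotine against kainate, 46 probe sets were called with median centring, 107 with array weights and 51 to 83 over left-out arrays, in place of 73; for nicotine against saline the count was 0 in every alternative. With the replicate block, 754 probe sets were called between the nicotine regions, 614 between the saline regions, 0 for nicotine against saline and 58 for nicotine against kainate, and 2 of 6 numbers had arrays that correlated best with their own number. Of 126 named genes called, 106 kept the call in every alternative in which they were tested (the cluster alone aside), 74 were called in the cluster alone, and 0 turned direction. The cluster alone also gave fewer calls in further lists, among them these. GABA and glycine receptors had 0 higher and 0 lower, glutamate receptors 1 and 1, neuropeptides 1 and 5, and synaptic genes 5 and 4. Forebrain transcription factors had 6 higher, adhesion genes 2 lower, and G-protein regulators and enzymes 4 lower. At the 50th percentile filter 22 called named genes were not tested, since their mean level lay below it. Signal near background limits Dsp, Prox1, Tnnc1, Rgs6, Sema3a and Cux2, whose folds depend on the added constant.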
